A study of Mus musculus with 34 samples.

Results

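The genes described here encode the core proteins and regulators of pre-mRNA splicing, taken from an RNA-seq table of mouse splenic B cells by their symbols. A row was a member if its symbol began with Srsf and a digit, Hnrnp, Sf3a or Sf3b, Snrp, Lsm and a digit, or Prpf. The rule found 74 of the 23812 rows, with 11 SR protein genes, 18 hnRNP genes, 8 SF3A and SF3B genes, 12 Snrp genes, 12 Lsm genes and 13 Prpf genes. No measured value entered the rule, although the members were chosen with earlier results of these data known. The rule leaves out genes of the same machinery under other symbols, which are given further on as separate lists.

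The activated cells (labelled aB for peaks and contacts) were splenic B cells of the CD43-negative fraction from C56BL/6J mice, as the series text spells the strain, aged 6 to 8 weeks, kept for 3 days in medium with 10 µg per ml LPS, the endotoxin of Gram-negative bacteria and a B cell mitogen. The resting cells (rB) were the unactivated control of the same CD43-negative fraction. No genotype other than the strain is given, and the culture fields also give LPS for the resting samples, so these were grouped as resting by title and source name. RNA-seq covered 2 activated and 2 resting samples, and the chromatin peaks and Hi-C contacts used below came from activated cells, out of 34 samples in the series.

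Splicing removes introns with a set of small nuclear ribonucleoproteins (snRNPs), each a short RNA carried by a ring of Sm or LSm proteins. U1 recognises the start of an intron and U2 its branch site with the SF3A and SF3B complexes, after which the U4, U6 and U5 tri-snRNP joins and the Prpf proteins drive rearrangement and catalysis. SR proteins mostly favour the use of nearby splice sites and hnRNPs often oppose it. B cell activation is known to bring growth, division and secretion of antibody, all of which need new mRNA.

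The RNA values are taken to be FPKM, fragment numbers corrected for transcript length and library size, so that levels can be compared between genes. From the smallest steps between values of single-exon olfactory receptor genes, 1 FPKM corresponded to 10.3 and 16.8 reads per kb of transcript in the activated libraries, against 14.4 and 14.2 in the resting libraries. Nothing in the labels says that replicates came from separate mice, so p-values reflect spread among libraries that may be technical. In bulk samples, fewer cells of a type and less RNA per cell cannot be told apart. Genes marking other cells differed between the groups. The summed FPKM of 7 erythroid rows was 14.99 and 6.31 in the activated libraries, against 1969 and 15225 in the resting libraries. Over 10 myeloid markers it was 13.04 and 15.3 in the activated libraries, against 464 and 866 in the resting libraries. Of these markers 8 fell, with C1qa and C1qb at 0 in both activated libraries, while Lyz2 and Itgam did not pass. Itgam had 2.26 and 2.07 FPKM in the activated libraries, against 1.61 and 2.77 FPKM in the resting libraries. Over 7 T cell markers the sum was 2.72 and 1.79 in the activated libraries, against 23.1 and 31.9 in the resting libraries. Lck, Cd4 and Cd8a fell. Cd3e, Cd3d and Cd3g were at 0 in both activated libraries, but were also low in resting replicate 1, at 0.135, 0.0491 and 0.0668 FPKM. The 5 dendritic cell markers summed to 27.04 and 16.2 in the activated libraries, against 25.6 and 24.4 in the resting libraries, but their directions differed. Flt3, which progenitors also express, rose and made up most of the activated sums, at 25.9 and 15.9 FPKM in the activated libraries, against 5.25 and 4.36 FPKM in the resting libraries, while Zbtb46, Clec9a and Itgax fell, and Clec9a and Siglech were at 0 in both activated libraries. The 4 NK cell markers summed to 1.01 and 0.392 in the activated libraries, against 6.35 and 13.7 in the resting libraries, and 3 of them were at 0 in both activated libraries. The 5 endothelial and stromal markers summed to 25.7 and 17.7 in the activated libraries, against 131 and 112 in the resting libraries. Pecam1 and Vcam1 fell, and Col1a1, Kdr and Cdh5 were below 1 FPKM in every library. The 6 B cell markers were present throughout, at 2005 and 1426 in the activated libraries, against 3219 and 3590.1 in the resting libraries, and 5 of them fell. Markers of plasma cells summed to 1638 and 1802 in the activated libraries, against 81.1 and 129 in the resting libraries. Igj made up most of the activated sums, at 1173 and 1255 FPKM. Prdm1, Xbp1 and Igj rose, but Sdc1 did not pass, at 2.16 and 5.17 FPKM in the activated libraries, against 3.46 and 3.76 FPKM in the resting libraries. Summed over 6 cell cycle genes, FPKM was 344 and 616 in the activated libraries, against 24.9 and 31.4 in the resting libraries. The part of these shifts in the values below was not tested.

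Of the 74 genes, 72 reached 1 FPKM in at least 2 libraries and were tested. Srsf12, a paralogue of Srsf10, was listed at 0.142 and 0.0178 FPKM in activated cells, against 0.124 and 0.0423 FPKM in resting cells. Snrpn, a tissue-restricted Sm protein gene, was listed at 0 in both activated libraries, against 0.0331 and 0.0169 FPKM in the resting libraries. In a limma fit over all 10863 tested genes, with an adjusted p under 0.05 as the threshold, 37 of the 72 genes rose in activated cells, 3 fell and 32 did not pass. Over all tested genes, 28.2% rose and 26.2% fell (54.4% in either direction). The median difference of the 72 genes was 0.57 on the log2(FPKM + 1) scale, beside 0.03 for all tested genes. Both activated libraries lay above both resting libraries for 55 genes and below them for 7, so 62 of the 72 did not overlap, beside 80.6% of all tested genes (41.5% higher). Of the 32 genes that did not pass, 23 had a positive difference, and their range was -0.47 to 0.75.

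The count of rises depended on single libraries. It was 43 without activated replicate 1, 22 without activated replicate 2, 16 without resting replicate 1 and 20 without resting replicate 2, where the background was 27.3%, 21.7%, 16.9% and 20.8% of tested genes. The count of falls in the same order was 2, 2, 0 and 0. With 1 library left out, the lone sample of its group is assumed to vary like the other group. A set of 15 genes was called higher in the full fit and in all 4 of these fits, beside 12.5% of all tested genes. They include Lsm2, Lsm3, Lsm5, Lsm12, Snrpa, Snrpa1, Snrpc, Snrpd1, Snrpf, Sf3a1, Sf3a3, Prpf38a, Hnrnpab and Hnrnpa1, whose value is uncertain for a reason given with the hnRNP genes.

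Together the 74 genes held 1.48% and 1.76% of the summed FPKM of the activated libraries, against 1.25% and 1.10% in the resting libraries. By class, the ratio of mean summed FPKM, activated over resting, was 1.95 for Snrp, 1.74 for Lsm, 1.59 for hnRNP, 1.31 for SR protein, 1.26 for SF3A and SF3B and 1.10 for Prpf genes.

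**Figure D1:**
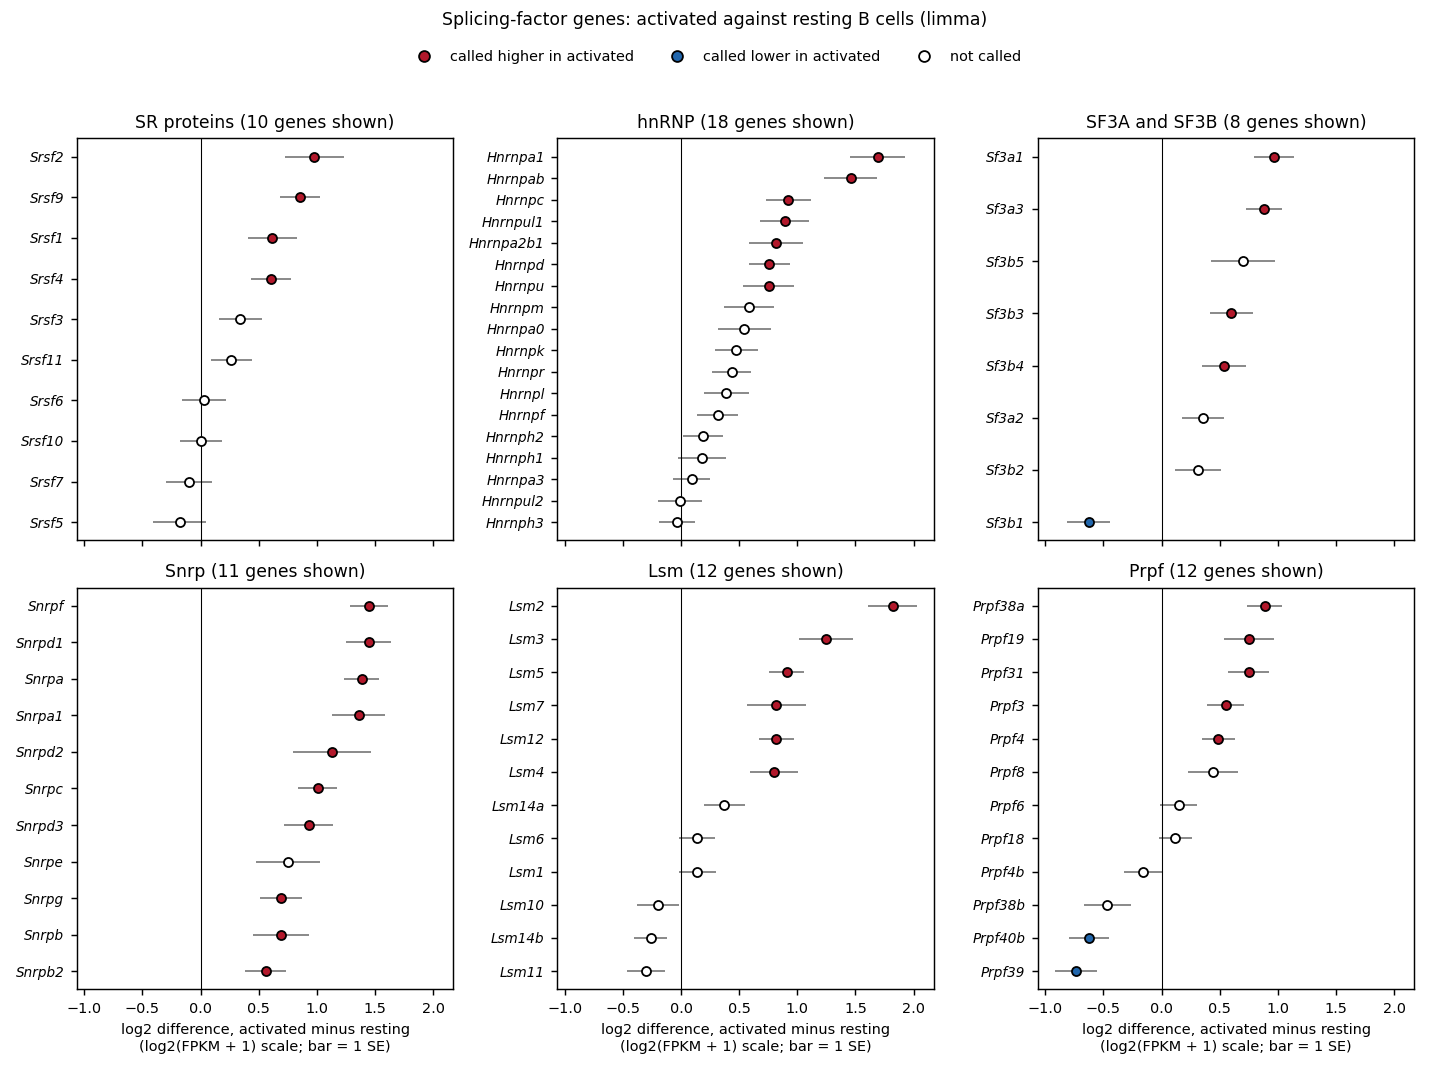
Difference between activated and resting B cells for 71 of the 72 tested genes, by class, on the log2(FPKM + 1) scale with 1 SE from limma; red points were called higher, blue points lower and open points not called. All 11 Snrp genes lie to the right of 0, and the 3 blue points are Sf3b1, Prpf39 and Prpf40b.

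The Snrp genes encode the Sm ring and the proteins specific to U1 and U2. Of 11 tested, 10 rose and none fell. All 11 had both activated libraries above both resting libraries, beside 41.5% of all tested genes. For this class and those that follow, the background is again 28.2% higher and 26.2% lower over all tested genes. The median difference of the class was 1.01 on the log2(FPKM + 1) scale, beside 0.03 over all tested genes. Without 1 library the number of rises ran from 5 (without resting replicate 1) to 10, with 7 without activated replicate 2 and 8 without resting replicate 2.

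Among the 7 Sm core genes, Snrpf had 39.2 and 45.4 FPKM in activated cells, against 14.3 and 15.4 FPKM in resting cells. The groups were well apart, at a log2 difference of 1.45 ± 0.16 (SE, limma adjusted p = 0.000606). Snrpd1 had 54.6 and 69.5 FPKM in activated cells, against 20.7 and 23.4 FPKM in resting cells, and its log2 difference was 1.44 ± 0.19 (SE, limma adjusted p = 0.00116). Snrpf had the lowest level of the ring in every library and Snrpd1 the next lowest, except in activated replicate 2, where Snrpg was lower. Their differences were the largest in the ring. Snrpd2 had 81.9 and 120.3 FPKM in activated cells, against 32.8 and 61.2 FPKM in resting cells, with a log2 difference of 1.13 ± 0.33 (SE, limma adjusted p = 0.0270). Its resting libraries were farther apart than the closest libraries of the 2 groups, and the call was lost without activated replicate 2 and without resting replicate 1 (adjusted p = 0.117 and 0.171 in limma). Snrpd3, with 101 and 125 FPKM in activated cells, against 53.95 and 63.01 FPKM in resting cells, had the highest mean level of the ring in activated cells and a log2 difference of 0.93 ± 0.21 (SE, limma adjusted p = 0.00963). Snrpb, which encodes the SmB proteins, had 89.8 and 128 FPKM in activated cells, against 60.6 and 72.05 FPKM in resting cells and differed by 0.69 ± 0.24 (SE, limma adjusted p = 0.0454). Snrpg differed by 0.69 ± 0.18 (SE, limma adjusted p = 0.0164). The call of Snrpd3 was lost without resting replicate 1, that of Snrpg without either resting library, and that of Snrpb held only without activated replicate 1. Only Snrpe did not pass, at 86.1 and 82.7 FPKM in activated cells, against 37.7 and 65.2 FPKM in resting cells, a log2 difference of 0.75 ± 0.28 (SE, limma adjusted p = 0.0545). Its resting replicate 1 was low and replicate 2 closer to the activated libraries.

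Since the Sm ring holds 1 copy of each protein, the spread of levels within it can be read from FPKM as a description. The highest level in the ring was 2.57 and 2.82 times the lowest in the activated libraries, against 4.23 and 4.68 times in the resting libraries.

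Both U1-specific genes under the Snrp name rose. Snrpa, whose protein binds a stem-loop of U1 RNA, had 37.1 and 39.3 FPKM in activated cells, against 14.6 and 13.4 FPKM in resting cells, and differed by 1.39 ± 0.15 (SE, limma adjusted p = 0.000557). This was the smallest adjusted p among the 72 genes. Snrpc, whose protein helps U1 contact the intron start, had 10.5 and 13.3 FPKM in activated cells, against 5.50 and 5.27 FPKM in resting cells and differed by 1.01 ± 0.17 (SE, limma adjusted p = 0.00285). The U2 gene Snrpa1 had 23.6 and 34.1 FPKM in activated cells, against 12.3 and 8.89 FPKM in resting cells and differed by 1.36 ± 0.23 (SE, limma adjusted p = 0.00312). Its partner Snrpb2 had 38.5 and 43.1 FPKM in activated cells, against 25.3 and 29.6 FPKM in resting cells and differed by 0.56 ± 0.17 (SE, limma adjusted p = 0.0315), a call held only in the fit without activated replicate 1. In these 4 genes no resting library reached an activated one.

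**Figure D2:**
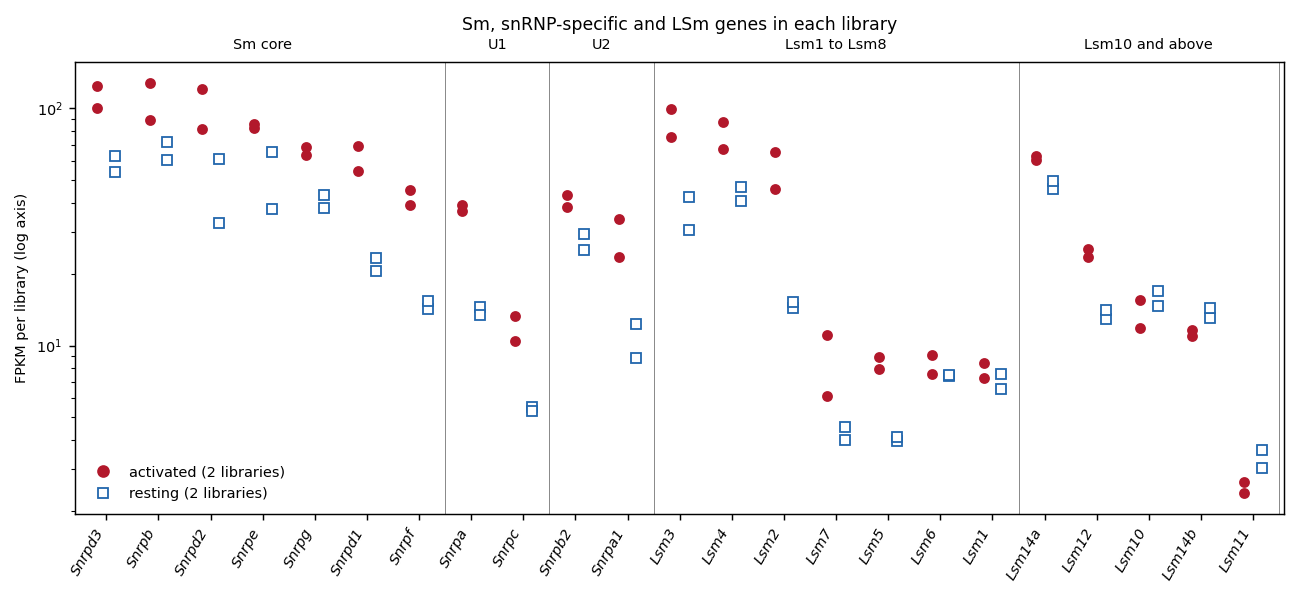
FPKM of the Sm, U1-specific, U2-specific and LSm genes in each library on a log axis, activated libraries as filled circles to the left of resting libraries as open squares. Both circles lie above both squares in every Sm, U1 and U2 gene, while Lsm10, Lsm11 and Lsm14b have lower means in activated libraries.

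The Lsm genes form rings of their own. Lsm2 to Lsm7 join with Lsm8 on U6 RNA in the nucleus and with Lsm1 in cytoplasmic mRNA decay, and Lsm10 and Lsm11 belong to the U7 snRNP, which processes histone mRNA. Of 12 tested genes, 6 rose and none fell, with a class median of 0.59 on the log2(FPKM + 1) scale. The rises were 5 of the 7 measured genes from Lsm1 to Lsm7, and Lsm12 alone among the 5 genes numbered 10 and above. Without 1 library the class kept between 4 and 6 rises.

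Lsm2 had 45.6 and 65.5 FPKM in activated cells, against 14.3 and 15.2 FPKM in resting cells, and the libraries of the groups did not overlap. Its log2 difference of 1.82 ± 0.21 (SE, limma adjusted p = 0.000668) was the largest among the 72 genes. Lsm3, the most abundant of the ring in the activated libraries, had 75.99 and 99.3 FPKM in activated cells, against 30.8 and 42.2 FPKM in resting cells and differed by 1.24 ± 0.23 (SE, limma adjusted p = 0.00471). Lsm5 had 8.90 and 7.95 FPKM in activated cells, against 3.94 and 4.10 FPKM in resting cells and differed by 0.91 ± 0.15 (SE, limma adjusted p = 0.00302). All 3 kept their call in each fit without 1 library. Lsm4 had 67.2 and 87.8 FPKM in activated cells, against 40.9 and 46.8 FPKM in resting cells, with a difference of 0.80 ± 0.21 (SE, limma adjusted p = 0.0169), and Lsm7 had 6.15 and 11.03 FPKM in activated cells, against 3.99 and 4.53 FPKM in resting cells, with 0.82 ± 0.26 (SE, limma adjusted p = 0.0326). For these 2 genes the call held only in the fit without activated replicate 1. Lsm12, an RNA-binding protein outside the ring, had 25.7 and 23.6 FPKM in activated cells, against 12.98 and 14.1 FPKM in resting cells and differed by 0.82 ± 0.15 (SE, limma adjusted p = 0.00417).

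The other 6 genes did not pass. Lsm1 and Lsm6 had log2 differences of 0.14 ± 0.16 and 0.14 ± 0.16, and the groups overlapped in Lsm1. The U7 genes Lsm10 and Lsm11 had differences of -0.20 ± 0.18 and -0.30 ± 0.17, and the P-body genes Lsm14a and Lsm14b had 0.37 ± 0.17 and -0.26 ± 0.15. Adjusted p in limma ran from 0.108 to 0.490 over the 6. Unlike in the Sm ring, levels from Lsm2 to Lsm7 spread widely in both groups, with the highest at 12.3 and 12.5 times the lowest in the activated libraries, against 10.4 and 11.4 times in the resting libraries.

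The SF3A and SF3B genes encode the parts of U2 that bind around the branch site. Of 8, 4 rose, 1 fell and 3 did not pass, with a median of 0.57 on the log2(FPKM + 1) scale. In all 8 the groups did not overlap, beside 80.6% of all tested genes. The number of rises was 6 without activated replicate 1 and 2 without each of the other libraries. Sf3a1 had 28.7 and 33.9 FPKM in activated cells, against 16.9 and 14.2 FPKM in resting cells and differed by 0.97 ± 0.17 (SE, limma adjusted p = 0.00375). Sf3a3 had 26.8 and 30.5 FPKM in activated cells, against 14.6 and 15.5 FPKM in resting cells and differed by 0.88 ± 0.15 (SE, limma adjusted p = 0.00356). Both kept their call in every fit without 1 library, whereas the rises of Sf3b3, 0.60 ± 0.19 (SE, limma adjusted p = 0.0324), and Sf3b4, 0.54 ± 0.19 (SE, limma adjusted p = 0.0499), held only without activated replicate 1.

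Sf3b1, whose protein clasps the branch site, moved the other way. It had 63.3 and 65.2 FPKM in activated cells, against 96.3 and 103 FPKM in resting cells, a log2 difference of -0.63 ± 0.18 (SE, limma adjusted p = 0.0257). No activated library reached a resting one, but the call held only in the fit without activated replicate 2, with an adjusted p of 0.0465 there and up to 0.172 in the others. Sf3b1 had the highest level of the 8 in the resting libraries, and Sf3b5, a small SF3B subunit, in the activated libraries. Sf3b5 had 83.5 and 126 FPKM in activated cells, against 52.6 and 74.9 FPKM in resting cells and did not pass at 0.70 ± 0.28 (SE, limma adjusted p = 0.0705). Sf3a2 and Sf3b2 did not pass either, with log2 differences of 0.35 ± 0.18 and 0.31 ± 0.20.

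The Prpf genes act mostly in the tri-snRNP and in activation. Of 13, 6 rose, 2 fell and 5 did not pass, with a median of 0.44 on the log2(FPKM + 1) scale. In all 13 the groups did not overlap, beside 80.6% of all tested genes. Rises numbered 7 without activated replicate 1, 3 without activated replicate 2, 2 without resting replicate 1 and 3 without resting replicate 2. Prpf38a, which joins the complex before activation, had 26.8 and 27.6 FPKM in activated cells, against 13.4 and 15.1 FPKM in resting cells and differed by 0.89 ± 0.15 (SE, limma adjusted p = 0.00309). It kept its call in every fit without 1 library. Prpf19, the ubiquitin ligase of the activation complex, had 13.03 and 19.4 FPKM in activated cells, against 8.26 and 9.95 FPKM in resting cells, a difference of 0.75 ± 0.21 (SE, limma adjusted p = 0.0240), and Prpf31, which binds U4, had 14.1 and 18.5 FPKM in activated cells, against 9.25 and 9.22 FPKM in resting cells, a difference of 0.75 ± 0.17 (SE, limma adjusted p = 0.0108). Prpf3 and Prpf4, partners in the U4 and U6 snRNP, differed by 0.55 ± 0.16 and 0.49 ± 0.14, with limma adjusted p of 0.0239 and 0.0254. Those 2 calls held only without activated replicate 1, that of Prpf31 was lost without either resting library, and that of Prpf19 without activated replicate 2 or resting replicate 1.

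The 2 falls were in genes of U1-associated proteins. Prpf39 had 21.05 and 15.8 FPKM in activated cells, against 30.7 and 31.3 FPKM in resting cells and differed by -0.73 ± 0.18 (SE, limma adjusted p = 0.0144). Its locus overlaps that of Fkbp3, which had higher FPKM in the activated libraries, and reads of overlapping genes cannot be told apart without strand. Prpf40b, at a low level, had 1.48 and 1.09 FPKM in activated cells, against 2.31 and 2.71 FPKM in resting cells and differed by -0.62 ± 0.17 (SE, limma adjusted p = 0.0203). Neither fall passed without a resting library, and that of Prpf40b was also lost without activated replicate 2. The genes that did not pass were Prpf8, the largest protein of the catalytic core, at 0.44 ± 0.21, Prpf6 at 0.15 ± 0.16, Prpf18 at 0.12 ± 0.14, the kinase gene Prpf4b at -0.16 ± 0.16 and Prpf38b at -0.47 ± 0.20. The last had one of the highest levels of the class, 68.9 and 59.9 FPKM in activated cells, against 97.99 and 80.97 FPKM in resting cells.

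The hnRNP genes encode abundant proteins that coat nascent transcripts. Of 18, 7 rose, none fell and 11 did not pass, with a median of 0.51 on the log2(FPKM + 1) scale. The number of rises was 10 without activated replicate 1, 5 without activated replicate 2 and 3 without each resting library. Hnrnpab, which binds both RNA and DNA, had 179.8 and 240.3 FPKM in activated cells, against 76.3 and 73.9 FPKM in resting cells and differed by 1.46 ± 0.22 (SE, limma adjusted p = 0.00212). It was called in every fit without 1 library. Hnrnpa1, a classic antagonist of SR proteins, had 14.3 and 23.8 FPKM in activated cells, against 5.06 and 5.01 FPKM in resting cells, a difference of 1.69 ± 0.24 (SE, limma adjusted p = 0.00143), but its value is uncertain because a nearly coextensive row, Gm5643, lies over the same locus. That row held 6.80 and 0.000742 FPKM in activated cells, against 7.59 and 5.87 FPKM in resting cells. The 2 rows summed to 21.1 and 23.8 FPKM in activated cells, against 12.6 and 10.9 FPKM in resting cells, a ratio of 1.91 where Hnrnpa1 alone gives 3.79.

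Hnrnpa2b1 had the highest level of all the genes, 329 and 403 FPKM in activated cells, against 219 and 196 FPKM in resting cells, and differed by 0.81 ± 0.23 (SE, limma adjusted p = 0.0235). Hnrnpu, a nuclear scaffold protein, had 203 and 243 FPKM in activated cells, against 139.6 and 124 FPKM in resting cells and differed by 0.75 ± 0.22 (SE, limma adjusted p = 0.0254). Both calls held only in the fit without activated replicate 1. Hnrnpc, which binds uridine tracts, had 84.3 and 102 FPKM in activated cells, against 46.7 and 50.3 FPKM in resting cells and differed by 0.92 ± 0.19 (SE, limma adjusted p = 0.00738). Hnrnpul1 had 84.9 and 95.5 FPKM in activated cells, against 55.6 and 41.7 FPKM in resting cells and differed by 0.89 ± 0.21 (SE, limma adjusted p = 0.0123). Hnrnpd (AUF1), which binds AU-rich elements of mRNAs, had 28.5 and 35.8 FPKM in activated cells, against 19.2 and 17.8 FPKM in resting cells and differed by 0.76 ± 0.17 (SE, limma adjusted p = 0.0105). The call was lost without resting replicate 1 for Hnrnpc, without resting replicate 2 for Hnrnpul1 and without either for Hnrnpd. The 11 genes that did not pass had differences between -0.04 and 0.59, of which 9 were positive, and limma adjusted p from 0.0536 to 0.969.

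The SR protein genes encode factors that bind exons and carry domains rich in arginine and serine. Of 10 tested, 4 rose and none fell, with a median of 0.30 on the log2(FPKM + 1) scale. The 4 rises stayed without activated replicate 1 in number, but only 1 was called without activated replicate 2 and none without either resting library. Srsf2 (SC35) had 207 and 292 FPKM in activated cells, against 112 and 137 FPKM in resting cells, the highest level of the class, and differed by 0.98 ± 0.25 (SE, limma adjusted p = 0.0171). Its activated replicate 2 was the higher by far, and the resting libraries stayed below both. Srsf9 had 76.1 and 74.4 FPKM in activated cells, against 42.2 and 40.1 FPKM in resting cells and differed by 0.86 ± 0.17 (SE, limma adjusted p = 0.00620). Srsf1 had 121 and 153 FPKM in activated cells, against 85.4 and 91.3 FPKM in resting cells, a difference of 0.62 ± 0.21 (SE, limma adjusted p = 0.0443), and Srsf4 had 50.5 and 54.5 FPKM in activated cells, against 36.1 and 32.3 FPKM in resting cells, a difference of 0.60 ± 0.17 (SE, limma adjusted p = 0.0230). In Srsf5, Srsf6, Srsf7 and Srsf10 the groups overlapped, with log2 differences of -0.18 ± 0.23, 0.03 ± 0.19, -0.10 ± 0.20 and 0.01 ± 0.18. Srsf3, an adaptor for mRNA export, and Srsf11 did not overlap between groups but did not pass, at 0.34 ± 0.18 and 0.26 ± 0.18. The sign of Srsf6, Srsf7, Srsf10 and Srsf11 turned in some of the repeats with another scaling or without 1 library.

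Genes of the same pathway under other symbols were taken as 7 lists, of which 124 genes were tested, 43 rose and 13 fell. The background for the count in each list is again 28.2% higher and 26.2% lower over all tested genes. In the list for the SMN complex, the methylosome and import, which build Sm rings onto snRNAs, 9 of 16 rose and none fell, with a median of 0.60 on the log2(FPKM + 1) scale. Gemin6, an SMN complex subunit, had 16.5 and 23.2 FPKM in activated cells, against 4.54 and 6.08 FPKM in resting cells and differed by 1.72 ± 0.21 (SE, limma adjusted p = 0.000928). Strap, Prmt5 (which methylates Sm proteins) and Smn1 differed by 1.27 ± 0.21, 1.23 ± 0.17 and 1.19 ± 0.21. These 4 genes were called in every fit without 1 library. In the exon junction complex list 6 of 10 rose and 1 fell, with a median of 0.71. Alyref, an mRNA export adaptor, had 41.4 and 48.2 FPKM in activated cells, against 15.8 and 16.2 FPKM in resting cells and differed by 1.42 ± 0.16 (SE, limma adjusted p = 0.000648), and Rnps1, Magoh and Rbm8a differed by 0.88 ± 0.20, 0.83 ± 0.28 and 0.79 ± 0.16. Without resting replicate 1 the list had 2 rises. The fall was Sap18, at 4.10 and 5.54 FPKM in activated cells, against 8.36 and 7.44 FPKM in resting cells, but the overlapping row Gm10094 was at 19.8 and 20.8 FPKM in activated cells, against 2.27 and 3.96 FPKM in resting cells, so the direction for this gene is uncertain.

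Among the U1, U2 and U5 partners 9 of 22 rose and none fell, with a median of 0.34. They include Phf5a, the SF3B subunit outside the naming rule, at 1.21 ± 0.24, as well as Rbm17 at 1.12 ± 0.17, U2af1 (which reads the intron end) at 1.10 ± 0.17 and Snrnp40 of U5 at 1.06 ± 0.18. In the list of activation, catalytic and release factors 7 of 22 rose and 3 fell, with a median of 0.37. Ppil1, a prolyl isomerase, had 52.5 and 77.6 FPKM in activated cells, against 20.5 and 23.4 FPKM in resting cells and differed by 1.50 ± 0.23 (SE, limma adjusted p = 0.00193), while Bud31 and Cwc15 differed by 0.88 ± 0.29 and 0.80 ± 0.16. The falls were Syf2 at -0.76 ± 0.17, Xab2 at -0.46 ± 0.15 and Slu7 at -0.41 ± 0.14, the last 2 not called in any fit without 1 library. The calls of Syf2 and Cwc15 were lost without either resting library, and that of Bud31 without activated replicate 2 or resting replicate 1. The list had between 1 rise, without resting replicate 1, and 8 rises, without activated replicate 1.

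The minor spliceosome, which removes a rare class of introns, was mixed, with 3 of 9 rising, 2 falling and a median of -0.12. Snrnp35, Snrnp25 and Zcrb1 rose by 0.85, 0.79 and 0.74. Rnpc3 differed by -0.60 ± 0.15, and Zrsr1 had 4.11 and 3.63 FPKM in activated cells, against 10.1 and 8.33 FPKM in resting cells and differed by -1.07 ± 0.17 (SE, limma adjusted p = 0.00224). The locus of Zrsr1 lies within the Commd1 row, which was higher in activated cells. Only Zrsr1 and Snrnp35 of the list were called in every fit without 1 library.

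In the list of kinases and phosphatases of SR proteins 1 of 9 rose, 4 fell and 4 did not pass, with a median of -0.42. In the same full fit 26.2% of all tested genes fell. Srpk3, an SR protein kinase, had 11.4 and 5.001 FPKM in activated cells, against 34.9 and 44.3 FPKM in resting cells and differed by -2.23 ± 0.34 (SE, limma adjusted p = 0.00211). Clk1, a nuclear kinase of SR proteins, had 48.9 and 38.2 FPKM in activated cells, against 130.1 and 136 FPKM in resting cells and differed by -1.60 ± 0.20 (SE, limma adjusted p = 0.00101). These 2 falls were called in every fit without 1 library, and Clk4 at -0.67 ± 0.16 and Dyrk1a at -0.61 ± 0.16 only while both resting libraries were kept. The rise was Srpk1, which had 22.8 and 26.3 FPKM in activated cells, against 17.1 and 17.997 FPKM in resting cells, a difference of 0.46 ± 0.16 (SE, limma adjusted p = 0.0431) that held only without activated replicate 1. Among 36 other splicing regulators 8 rose and 3 fell, with a median of 0.15. With quantile normalization 6 rose and 10 fell, so the balance of this list turned with the scaling. Pcbp1, Syncrip, Ptbp1 (a repressor that binds pyrimidine tracts) and Mbnl2 rose, by 0.93, 0.89, 0.85 and 0.81, and Rbm5, Ptbp2 and Celf2 differed by -0.64 ± 0.17, -0.55 ± 0.16 and -0.54 ± 0.18. None of the 8 rises passed without resting replicate 1, and the list had falls in only 1 of the 4 fits without 1 library, that without activated replicate 1.

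**Figure D3:**
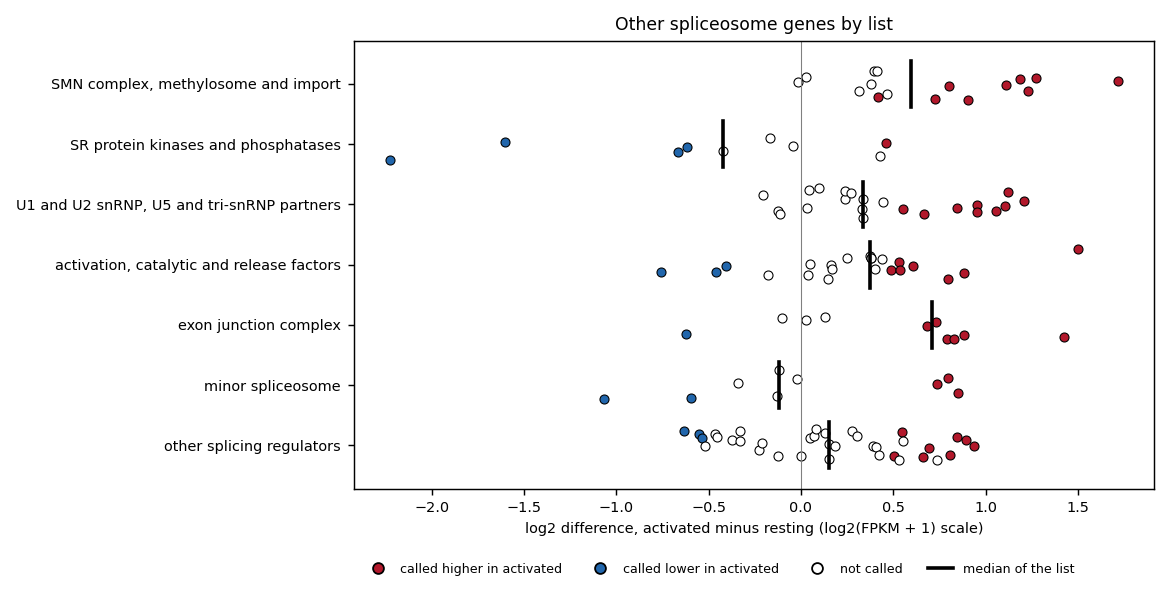
Difference between activated and resting B cells for each tested gene of the 7 lists of other spliceosome genes, on the log2(FPKM + 1) scale, with the list's median as a bar; red points were called higher, blue lower, open not called. The SR kinase list has its median at -0.42 and the SMN and methylosome list at 0.60.

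Chromatin was read from lists of peaks in activated cells, 1 pooled list for each assay, with no score and no replicates. FAIRE-seq recovers open chromatin, H3K4me3 marks active promoters and H3K27ac marks active promoters and enhancers. STARR-seq tests DNA fragments for enhancer activity in a reporter plasmid, and its library was made from FAIRE DNA. A gene was counted with a peak if 1 lay within 1 kb of either end of its locus, and all tested genes serve as background. Of the 72 genes, 68 had H3K4me3 (94.4%, beside 88.5% of all tested genes), 66 had H3K27ac (91.7%, beside 85.5%) and 69 had FAIRE (95.8%, beside 88.0%). STARR peaks lay at 58 of the 72 (80.6%, beside 51.0%). Among the 3399 tested genes whose mean level was at or above the lowest quartile of the 72, the STARR share was 60.5%, and those of H3K4me3, H3K27ac and FAIRE were 92.7%, 92.5% and 93.7%. A gene end of another gene lay within 1 kb of 33 of the 72 genes, so a peak there may belong to either. Among the 39 with no such neighbour, 31 had a STARR peak. The matching counts by neighbour were not taken over all tested genes. No member lay at a super-enhancer, beside 0.423% of all tested genes. These are shares of pooled lists with no test.

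**Figure D4:**
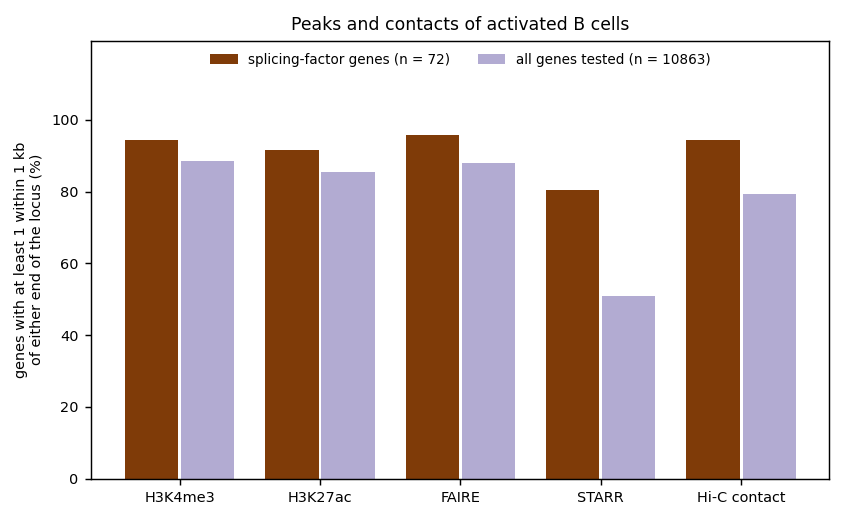
Share of genes with at least 1 peak of each kind, or 1 Hi-C contact, within 1 kb of either end of the locus in activated B cells, for the 72 splicing-factor genes on the left of each pair and all 10863 tested genes on the right. The largest gap is that of STARR peaks, 80.6% beside 51.0%.

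By class, STARR peaks lay at all 10 SR protein genes, 11 of 13 Prpf genes, 14 of 18 hnRNP genes, 6 of 8 SF3A and SF3B genes, 9 of 12 Lsm genes and 8 of 11 Snrp genes. Up to 3 STARR peaks lay in or at a locus, as at Hnrnpf, while 10 genes had 2 and 46 had 1. Lsm2, Snrpd1, Snrpa1 and Snrpc, among the genes with the largest rises, had none. All 4 kinds of peak lay together at 57 genes, a count that was not taken over all tested genes. H3K4me3 peaks were broadest at Srsf3 (5350 bases), Srsf2 (4768 bases), Hnrnpl (4729 bases) and Hnrnph1 (4651 bases), and the median was 2227 bases, beside 1983 bases at all tested genes with a peak.

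The tested genes with no H3K4me3 peak at either end were Hnrnpa2b1, Hnrnpc, Hnrnpul2 and Sf3a2. Hnrnpa2b1, the gene with the highest level, had its nearest H3K4me3 peak at 27140 bases and its nearest H3K27ac peak at 54122 bases, but a FAIRE peak lay on a gene end. Around Hnrnpc the nearest H3K4me3 peak lay at 14986 bases and the nearest H3K27ac peak at 15090 bases. The nearest H3K4me3 peaks were 2255 bases from Sf3a2 and 2968 bases from Hnrnpul2. Snrpn, which was not tested, had its nearest at 641 kb.

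Where a RefSeq entry gave the strand (64 of the 74 genes), the position of peaks relative to the gene start could be read. Within 1 kb of the starts lay 58 STARR peaks at 51 genes, with the centre at a median of -73.5 bases (quartiles -153 and -6.63), and 38 of them covered the start itself. The 109 FAIRE peaks at 59 genes had a median centre of -56 bases (quartiles -120 and 463), and 52 covered the start.

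**Figure D5:**
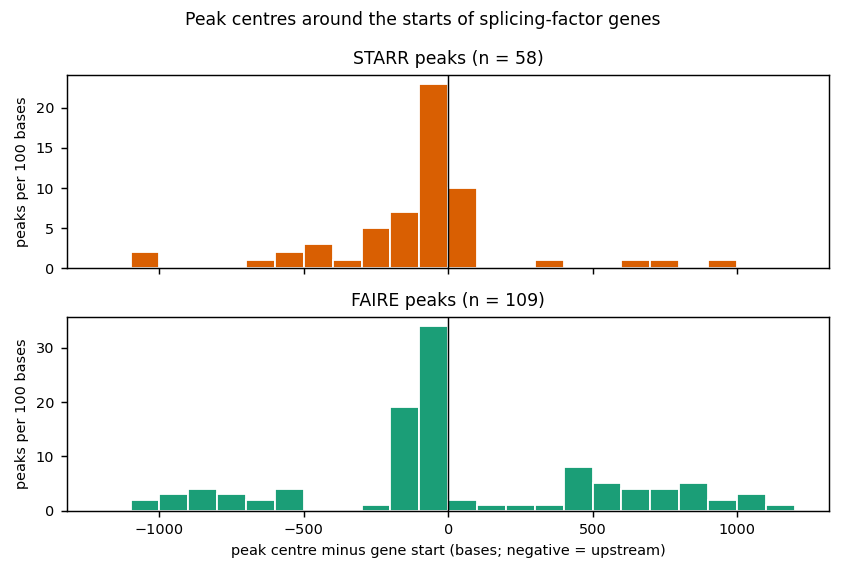
Distance from the gene start to the centre of each STARR (upper) and FAIRE (lower) peak within 1 kb of the start, in bins of 100 bases, negative upstream. Both have their tallest bar just upstream of the start, and FAIRE peaks also have a lower group downstream of the start.

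The promoters of 6 genes are shown because a STARR peak covered the start of each and they include both directions of change, with the rises of Snrpf, Lsm3, Hnrnpab and Srsf2 and the falls of Sf3b1 and Prpf39. On mm9 the STARR peaks were chr10:93052278-93052578 at Snrpf, chr6:91465827-91466126 at Lsm3, chr11:51420306-51420606 at Hnrnpab and chr11:116714309-116714609 at Srsf2. Those of the falling genes were chr1:55084164-55084464 at Sf3b1 and chr12:66137190-66137490 at Prpf39. The sequences are the 250 bases before the RefSeq start on another build, GRCm38.p6, so that these coordinates cannot be set against those of the peaks. They are chr10:93589659-93589908, reverse strand for Snrpf, chr6:91515785-91516034, forward strand for Lsm3 and chr11:51606882-51607131, reverse strand for Hnrnpab. The others are chr11:116853095-116853344, reverse strand for Srsf2, chr1:55027479-55027728, reverse strand for Sf3b1 and chr12:65036084-65036333, forward strand for Prpf39. Each is written 5′ to 3′ on the gene's strand. Capitals mark matches on either strand to CCGGAAG, the core of ETS-type sites, to the CCAAT box, to the GC box GGGCGG, to the E-box with the letters CACGTG, to the TATA box as TATAAA and to the E2F-type letters GGCGGGAA.
Snrpf: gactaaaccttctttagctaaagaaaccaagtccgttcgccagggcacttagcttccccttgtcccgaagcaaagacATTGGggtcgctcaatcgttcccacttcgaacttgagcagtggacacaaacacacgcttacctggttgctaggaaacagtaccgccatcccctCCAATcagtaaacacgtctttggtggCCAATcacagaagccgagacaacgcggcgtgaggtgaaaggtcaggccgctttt
Lsm3: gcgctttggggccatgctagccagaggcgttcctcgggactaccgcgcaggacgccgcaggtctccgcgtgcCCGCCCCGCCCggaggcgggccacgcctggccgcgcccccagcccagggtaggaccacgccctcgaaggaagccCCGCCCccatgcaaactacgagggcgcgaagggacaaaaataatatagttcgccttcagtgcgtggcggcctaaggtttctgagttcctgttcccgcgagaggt
Hnrnpab: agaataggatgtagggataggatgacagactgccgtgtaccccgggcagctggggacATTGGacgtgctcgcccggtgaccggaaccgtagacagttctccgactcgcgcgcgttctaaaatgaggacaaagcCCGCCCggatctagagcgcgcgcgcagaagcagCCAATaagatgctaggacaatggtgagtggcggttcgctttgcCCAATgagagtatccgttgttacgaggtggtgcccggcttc
Srsf2: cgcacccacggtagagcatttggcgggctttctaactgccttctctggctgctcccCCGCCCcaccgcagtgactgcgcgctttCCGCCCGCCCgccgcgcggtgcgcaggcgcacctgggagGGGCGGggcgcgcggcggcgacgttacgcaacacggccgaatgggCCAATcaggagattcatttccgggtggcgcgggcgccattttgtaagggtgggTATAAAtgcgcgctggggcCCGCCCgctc
Sf3b1: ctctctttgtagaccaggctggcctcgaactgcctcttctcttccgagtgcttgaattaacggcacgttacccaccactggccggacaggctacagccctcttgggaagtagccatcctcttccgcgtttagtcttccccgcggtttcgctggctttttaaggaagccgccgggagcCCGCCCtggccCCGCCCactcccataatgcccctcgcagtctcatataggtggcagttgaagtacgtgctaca
Prpf39: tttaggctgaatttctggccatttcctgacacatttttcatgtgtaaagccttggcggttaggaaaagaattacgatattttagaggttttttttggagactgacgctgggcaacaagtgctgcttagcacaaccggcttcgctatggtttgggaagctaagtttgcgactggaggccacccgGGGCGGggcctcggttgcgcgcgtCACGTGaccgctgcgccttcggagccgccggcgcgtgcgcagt
Snrpf and Hnrnpab each held 3 CCAAT matches, Lsm3 held 3 GC boxes and no CCAAT, and Srsf2 held 5 GC boxes, 1 CCAAT and 1 TATAAA. Sf3b1 held 2 GC boxes and Prpf39 held 1 GC box and 1 E-box.

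Over the 62 tested genes with a RefSeq promoter, CCAAT stood in 50.0%, beside 41.4% of 8118 tested genes, and GGGCGG in 67.7%, beside 64.1%. CCGGAAG stood in 18 promoters (29.0%, beside 17.4%), among them 5 of the SF3A and SF3B genes, Sf3a1, Sf3a2, Sf3a3, Sf3b2 and Sf3b3. GGCGGGAA stood in 8 (12.9%, beside 4.30%), namely Hnrnpa2b1, Hnrnpf, Hnrnpr, Hnrnpul1, Prpf19, Srsf1, Srsf4 and Srsf10. CACGTG stood in 11.3%, beside 10.3%, and TATAAA in 8.06%, beside 7.46%. Another 7 motifs were searched in the same windows. CGTCA stood in 40.3%, beside 32.2%, CGCATGCG in 6.45%, beside 4.08%, and AAGATGGC in 3.23%, beside 2.69%. TGACGTCA stood in 4.84%, beside 3.19%, TGACGTAA in 4.84%, beside 0.985%, and TTTCGCGC in 3.23%, beside 0.702%. TTCGCGGG stood in none, beside 1.05%. CGTCA or its reverse complement lies inside TGACGTCA and TGACGTAA, and a GC box can share letters with GGCGGGAA, so these counts overlap. A set of 3 longer motifs searched before is not given here. A match is a run of letters and no evidence of binding.

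Hi-C contacts, pairs of genome regions called in activated cells, were listed over pooled replicates with their read number. The deposited list is named as filtered enhancer and promoter interactions, so it does not hold all contacts of a gene. Unlike for peaks, no background restricted by RNA level was taken for contacts. Of the 72 genes, 68 had an anchor within 1 kb of an end (94.4%, beside 79.2% of all tested genes), with a median of 6 contacts per gene beside 4. The 508 distinct contacts of the splicing genes spanned a median of 831 kb, beside 374 kb over the 27706 contacts of all tested genes, and 82 of them (16.1%, beside 10.6%) spanned 3 Mb or more. The same pair of regions can be listed at several anchor sizes.

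Hnrnpul1 had the most contacts, 20, over a median of 1.83 Mb. Hnrnpul2 had 18, mostly shorter, with a median of 135 kb. Lsm7, Prpf31 and Srsf6 had 16 each, with medians of 150 kb for Lsm7, 2.06 Mb for Prpf31 and 4.10 Mb for Srsf6. In RNA, Hnrnpul2 had a log2 difference of -0.01 ± 0.19 and Srsf6 of 0.03 ± 0.19. Lsm2, with the largest difference in RNA, had 15 contacts. Prpf40b, Prpf4, Prpf6 and Hnrnph2 had no contact.

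In 2 cases a contact had its anchors within 1 kb of the ends of 2 different splicing genes. On mm9 chromosome 10, Sf3a2 and Lsm7 were linked in this way by a contact of 78 reads between anchors of 5 kb, chr10:80260031-80265030 and chr10:80309796-80314795, and by one of 17 reads between anchors of 2 kb. The second 5 kb anchor lies outside the Lsm7 locus, which starts at chr10:80315569. Ends of Amh and Plekhj1 lay within 1 kb of Sf3a2 and an end of Sppl2b within 1 kb of Lsm7, so these contacts may belong to other genes. On chromosome 7, Hnrnpul1 and Snrpa were joined over 1.44 Mb by 14 reads between anchors of 5 kb, chr7:26537325-26542324 and chr7:27978966-27983965, and by 5 reads between anchors of 2 kb. In RNA, Lsm7, Hnrnpul1 and Snrpa rose and Sf3a2 did not pass, at 26.001 and 33.7 FPKM in activated cells, against 23.4 and 22.5 FPKM in resting cells.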

How the data were processed

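The deposited RNA table of 2 activated and 2 resting samples gives a symbol, a locus on mm9 and 1 value per sample for each gene. Its unit is not named in the sources used here, and these deposited values were taken to be FPKM. Per the submitters' processing notes, Bowtie, Bowtie2, HOMER, bedtools, TopHat2 and STAR were used, with no role or version given. The authors deposited Hi-C contacts with whole-number read counts over pooled replicates and a z-score per contact, and peak lists as coordinates without a score. The deposited z-score was not used.

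Here log2(FPKM + 1) was fitted with limma 3.58.1 (trend and robust, R 4.3.3) on the 10863 genes with at least 1 FPKM in at least 2 samples, without a replicate block, and p-values were adjusted by Benjamini-Hochberg over all of them (threshold 0.05). Fold changes on this scale understate those of low genes. The fit was also run on simulated data with normal noise and few changed genes. Its outcome is not given here, and it does not bear on how calls depend on single libraries. Peaks and contacts were assigned within 1 kb of either locus end with Python 3.11.15 and pandas 2.3.3. The depth was read from value steps of 5 to 7 single-exon genes per sample that stood at 1 read, whole within 0.05 of a read, taking the locus as the transcript length.

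No strand is known for the counting, and 11 of the 74 loci overlap another row. RefSeq (GRCm38.p6) gave strand and promoters. Per class and direction, up to 4 called genes with the largest change and non-overlapping groups (mean of at least 5 FPKM in the higher group) are named, with the 2 highest genes, genes against the class's direction, and uncalled genes where at most 6. A single member is counted but not reported by name here. The printed promoters and the motifs were chosen with values known. The members and lists were chosen with earlier results of these data known. Alternatives were other pseudocounts, filters and scalings, fits without 1 library, other windows and a stricter contact minimum. Not used here were the H3K4me1, nascent RNA and plasmid samples and the ChIP-seq of resting cells.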

Additional observations from a re-analysis of the deposited data

How the results depend on the processing

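No called gene of the members or lists turned direction under any alternative run; signs near 0 turned among genes not called, Srsf6, Srsf7, Srsf10, Srsf11, Hnrnpul2 and Hnrnph2 among them. Over 89 named genes and the settings other than leaving out a library, 679 of 710 repeats kept their side of the threshold. When 1 library was left out, 256 of 356 did so. A turn of sign counted as kept where neither fit called the gene. Quantile normalization called 29 members higher and 4 lower and gave a median difference of 0.40, no filter on low values called 29 and 3, and median-ratio scaling 37 and 3. Over all genes, 1852 of 8000 tested were lower with a mean of at least 5 FPKM required, against 2844 of 10863 tested in the full fit. Quantile normalization gave 2 rises among SR protein genes, 2 among SF3A and SF3B genes, 0 among SR kinases, and 6 rises and 10 falls among other regulators. With no filter there were 2 rises among SF3A and SF3B genes, 4 rises and 1 fall among activation factors, 0 rises among SR kinases, 5 rises and 1 fall among other regulators, and 0 falls in the exon junction list. Of the Prpf genes, 1 fell with a mean of at least 5, since Prpf40b was then not tested. The cause of the other shifts was not tested.

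Leaving out 1 library gave 1735 to 2859 rises and 1191 to 2834 falls over all genes, and 16 to 43 rises and 0 to 2 falls among the members. Rises ran from 0 to 4 for SR protein, 3 to 10 for hnRNP, 2 to 6 for SF3A and SF3B, 5 to 10 for Snrp, 4 to 6 for Lsm and 2 to 7 for Prpf genes, and falls from 0 to 1 for SF3A and SF3B and 0 to 2 for Prpf genes. In the lists, rises ran from 6 to 11 (SMN and methylosome), 6 to 10 (U1, U2 and U5 partners), 1 to 8 (activation), 2 to 6 (exon junction), 1 to 3 (minor spliceosome), 0 to 1 (SR kinases) and 0 to 8 (other regulators). Falls ran from 2 to 5 (SR kinases), 0 to 1 (activation), 0 to 1 (exon junction), 1 to 2 (minor spliceosome) and 0 to 4 (other regulators). The members' share of FPKM was 0.449 percentage points higher in activated libraries, and 0.374 without resting replicate 2, a value added after seeing the data. The value without any other library was not computed. The share was 1.48% in activated replicate 1 and 1.76% in activated replicate 2, against 1.25% and 1.10% in the resting libraries.

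A replicate block called 41 members higher and 3 lower, and 3317 and 2964 genes in all. Same-numbered samples deviated together only weakly (r = 0.124 over genes in both pairs). With 2 samples per group the 2 pairs mirror each other, so this is 1 comparison. It cannot show whether same-numbered samples shared a preparation, and the labels give only the number. The block changed no count of calls by over 1.5 times.

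With 0.5 of the peak required inside the window, 83.3% of the members had H3K4me3. A window of 0 bases gave 84.7% for FAIRE, 16.8 percentage points above all genes, and 61.1% for STARR. A window of 5 kb gave 100% for FAIRE. In the window of 1 kb, FAIRE stood 2.10 points above the genes at or above the lowest quartile of the members in mean level. With at least 2 times the smallest read number, 69.4% of the members had a contact, beside 55.4% of all genes. Contacts with anchors that do not overlap and peaks at the RefSeq start, both added after seeing the data, gave 94.4% and, for STARR, 82.3%. With 2 libraries per group, differences near the threshold were called or not by single libraries.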
